A study of Mus musculus with 2 samples.

Results

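Mitochondrial ribosomal proteins were taken as the protein-coding genes of the count table whose names start with Mrpl or Mrps followed by a number. Of the 54751 genes in the table, 78 met this rule, 49 of them named for the large subunit (Mrpl) and 29 for the small subunit (Mrps). They were compared between 2 RNA-seq libraries of bone marrow-derived MDSCs, myeloid-derived suppressor cells grown from the marrow of WT mice. The mrWNT2 library came from cells that received mrWNT2, named after the secreted signalling ligand WNT2, and the control library from cells that received vehicle. Treatment fell on day 0 and day 3 and the labels give day 6 for both cultures. Each group was 1 library, so no difference below has a replicate check and no p-value is given. The mrWNT2 library held 12621110 counts and the control library 13474453.

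The mitochondrial ribosome, or mitoribosome, translates the few proteins that mitochondrial DNA encodes, all of them subunits of the respiratory chain and the ATP synthase. Its ribosomal RNAs come from mitochondrial DNA, whereas its proteins are encoded in the nucleus, made in the cytosol and imported. Some have counterparts in bacterial ribosomes and others are found only in mitochondria. Gene names do not always follow the structure: Mrps18a and Mrps30 belong to the large subunit of the assembled particle, and Mrps36 is a part of the 2-oxoglutarate dehydrogenase complex. In myeloid cultures from bone marrow, dividing precursors sit beside maturing neutrophils, which are known for having few mitochondria.

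Most of these genes were slightly higher in the mrWNT2 library, with similar median ratios in both subunits. Of the 78 genes, 77 had counts and averaged 1 CPM or more over the libraries (CPM, counts scaled to library size and given per 1e6), and these 77 are the measured members. Their log2 ratio of mrWNT2 over control had a median of 0.18, a 1.14-fold difference, against a median of 0.02 over all 12856 genes that averaged 1 CPM or more. The ratio was above 1 for 65 of the 77, compared with 52.3% of all genes. At least 1.2-fold higher were 26 of the 77 (all genes, 21.0%) and at least 1.2-fold lower were 2 (all genes, 18.4%), leaving 49 between. At least 1.5-fold higher were 6 (all genes, 7.62%) and at least 1.5-fold lower were 0 (all genes, 7.02%). The share of members at 1.5-fold or more was therefore close to the background on the higher side. The members differed from all genes in a small positive median and in few genes on the lower side. The middle 50% of the members lay between log2 ratios of 0.05 and 0.29, a width of 0.24, against a width of 0.40 for all genes. Such widths include counting error, which grows as counts fall, and the sets were not matched for depth. How much of the difference in width follows depth was not tested.

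Counting error is large for single members at this depth. Their counts ran between 30 and 1469, with a median of 250 in the mrWNT2 library and 230 in the control library. The exact 95% binomial (Clopper-Pearson) interval of a typical member reached about 1.2-fold to each side. It lay above a ratio of 1 for 26 members (all genes, 21.0%) and below it for 1 (all genes, 18.8%). The interval held the members' own median for 61 of the 77, lay above it for 9 and below it for 7. These intervals cover counting error only and compare 2 libraries, not 2 conditions. In bulk RNA, moreover, fewer cells of a type and less RNA per cell cannot be told apart.

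**Figure D1:**
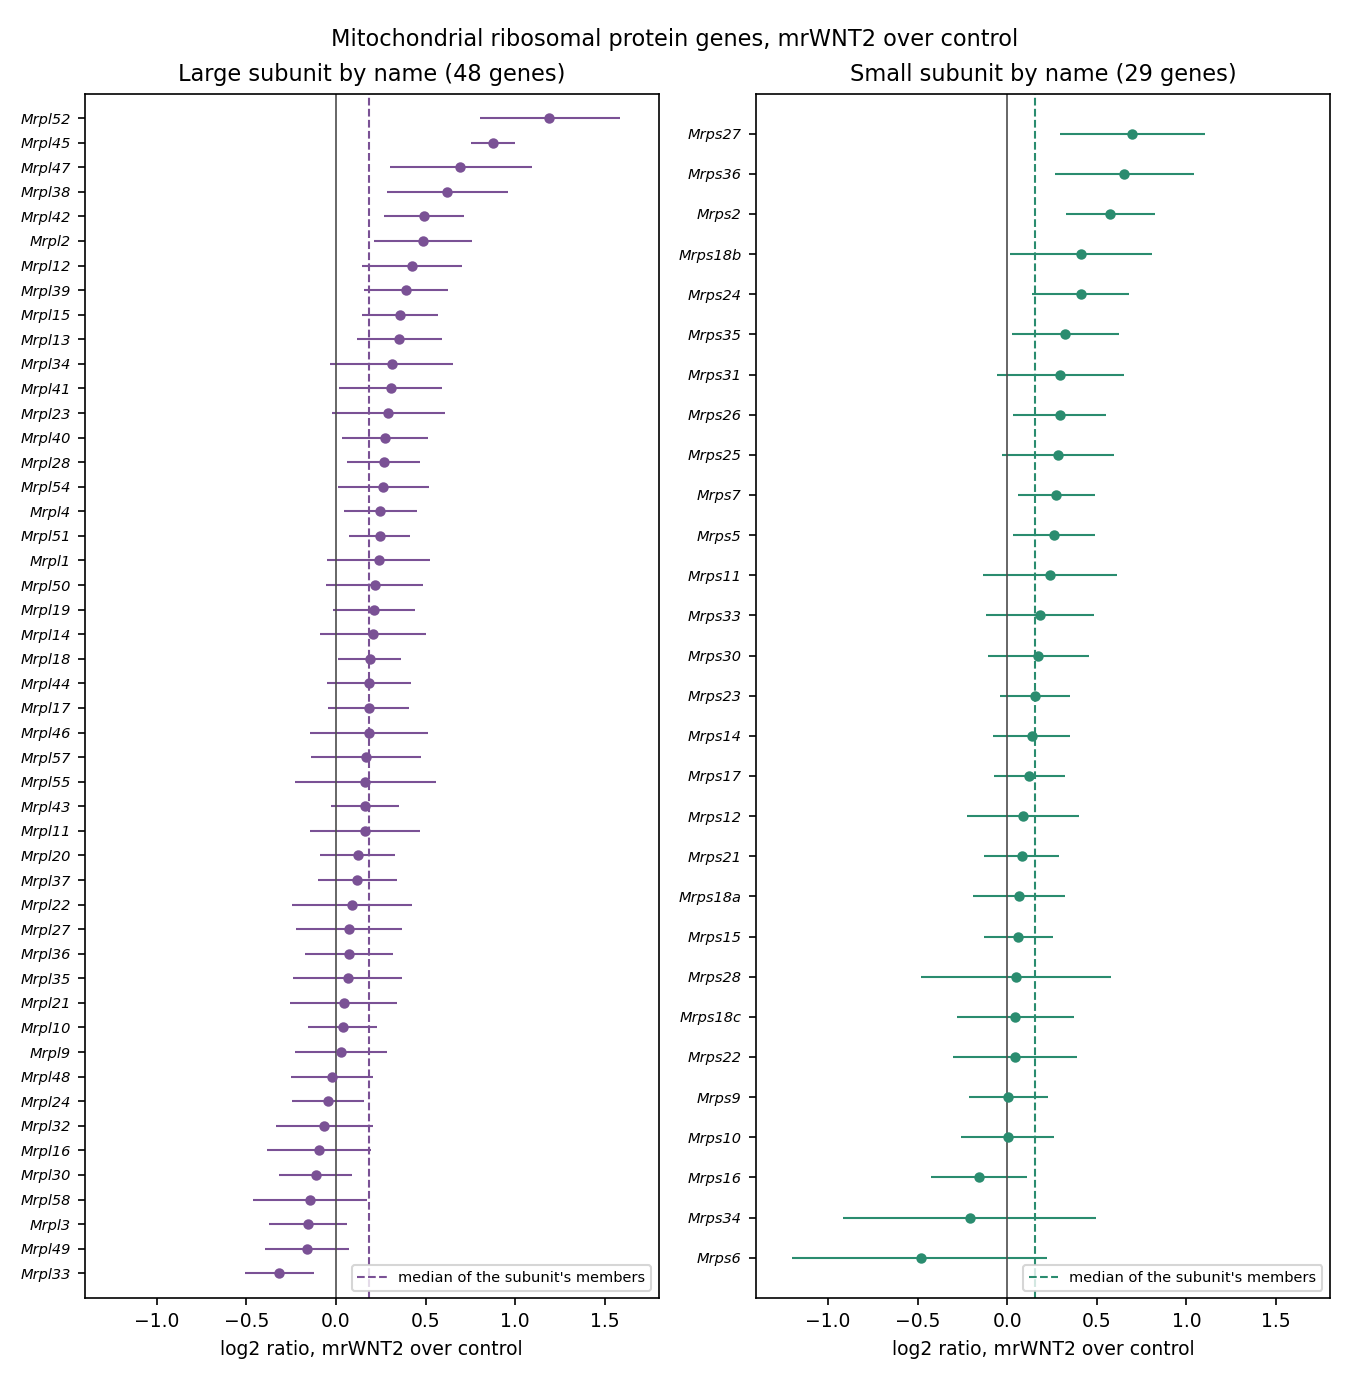
Log2 ratio of mrWNT2 over control (x axis) for each of the 48 measured genes named Mrpl (left) and the 29 named Mrps (right). Points are single genes, bars the exact 95% counting intervals, the solid line a ratio of 1 and the dashed line the median of the subunit; Mrpl52 and Mrpl45 stand at the top on the left, and Mrpl33 has the only interval wholly below a ratio of 1.

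The subunits were then set against each other. The 48 measured large-subunit genes had a median log2 ratio of 0.18 and the 29 small-subunit genes one of 0.16. Above a ratio of 1 were 39 of the 48 and 26 of the 29 (all genes, 52.3%). At least 1.2-fold higher were 16 of the 48 and 10 of the 29 (all genes, 21.0%). Summed over its genes, the large subunit stood at 1175 CPM in the mrWNT2 library (exact Poisson interval 1157 to 1194) and 1011 CPM in the control library (994 to 1028), a 1.16-fold ratio (1.14 to 1.19). The small subunit stood at 531 CPM (518 to 544) in the mrWNT2 library and 469 CPM (457 to 481) in the control library, a 1.13-fold ratio (1.09 to 1.17). Large-subunit counts, summed and not corrected for length, were 2.21 times the small-subunit counts in the mrWNT2 library and 2.16 times in the control library. The quotient of these values was 1.03, with an exact counting interval of 0.984 to 1.07 that included 1. Mrpl45 alone held 9.83% of the large-subunit counts in the mrWNT2 library and 6.22% in the control library, and without it the summed ratio of the large subunit was 1.12 (1.09 to 1.15), below that of the small subunit. The order of the subunits in the summed counts therefore rested on 1 gene. The medians also depended on which members entered: without those that share exonic bases with another gene, the large-subunit median was 0.25 and the small-subunit median 0.11, over 45 members.

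**Figure D2:**
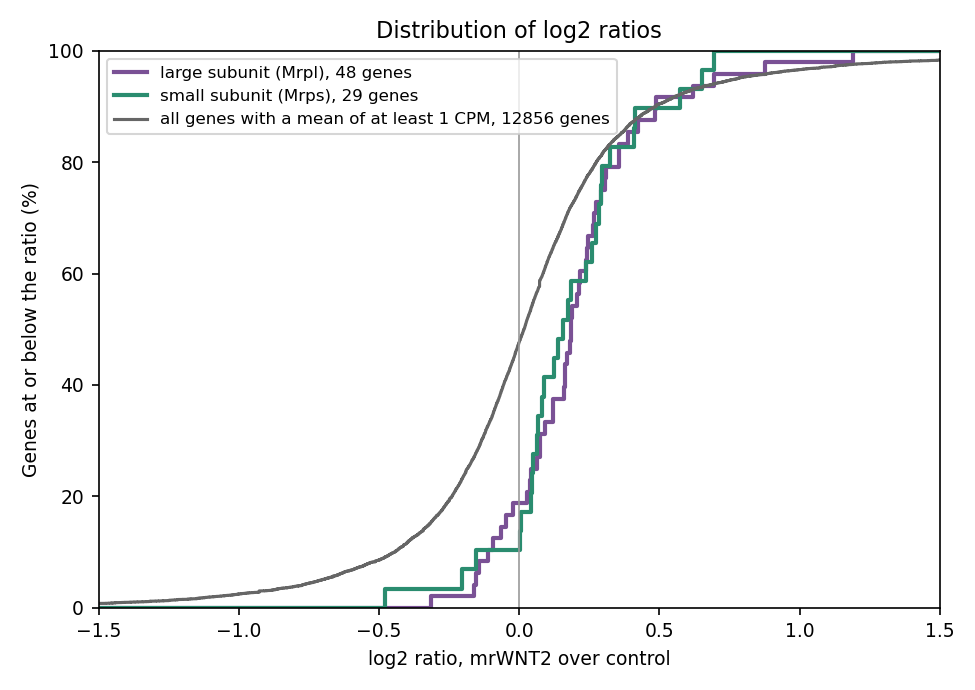
Cumulative share of genes (y axis, %) at or below a log2 ratio of mrWNT2 over control (x axis) for the large subunit, the small subunit and all 12856 genes that averaged 1 CPM or more. Both subunits follow nearly the same curve, with medians of 0.18 and 0.16 against 0.02 for all genes.

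Among the large-subunit genes, Mrpl52 had the highest ratio. It encodes a protein found in mitochondria and not in bacterial ribosomes, and it lies on chromosome 14, 54426909 to 54429756 (GRCm38). Mrpl52 had 178 counts in the mrWNT2 library and 82 in the control library, which is 14.0 and 6.13 CPM and a 2.28-fold ratio (interval 1.75 to 3.0). Mrpl45 (chromosome 11, 97315716 to 97329920), which encodes the protein that ties the mitoribosome to the inner membrane beside the exit of the peptide tunnel, had 1469 counts in the mrWNT2 library and 841 in the control library. Its level was 116 CPM in the mrWNT2 library and 62.9 CPM in the control library, a 1.84-fold ratio with a narrow interval of 1.69 to 2.0. Both intervals lay wholly above the members' median fold of 1.14, as did those of 7 other members.

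Further large-subunit genes were between 1.3-fold and 1.7-fold higher. Mrpl47, the counterpart of a bacterial protein near the tunnel exit, had 137 counts in the mrWNT2 library and 89 in the control library (1.62-fold, 1.23 to 2.14), and 24.2% of its exonic bases are shared with Actl6a or Ndufb5 on the opposite strand. Mrpl38 had 184 and 126 counts in the mrWNT2 and control libraries (1.54-fold, 1.22 to 1.94), and its product is part of the central protuberance, the ridge of the large subunit that faces the small one. Mrpl42 followed with 391 counts in the mrWNT2 library and 293 in the control library (1.4-fold, 1.2 to 1.64). Mrpl2, whose bacterial counterpart lies near the catalytic centre, had 258 counts in the mrWNT2 library and 194 in the control library (1.4-fold, 1.16 to 1.69). Mrpl12, a protein of the stalk that recruits translation factors, was 1.34-fold higher (1.11 to 1.63), with 245 counts in the mrWNT2 library and 192 in the control library.

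At the other end of the large subunit, Mrpl33 (chromosome 5, 31596935 to 31664384), the counterpart of a small bacterial protein of the large subunit, had 389 counts in the mrWNT2 library and 509 in the control library. It was 1.24-fold lower (interval 1.09 to 1.42). The deposited model of Mrpl33 is 7326 bases long against 478 for its principal transcript, so its counts can include reads from other parts of this long locus. Mrpl49, found in mitochondria only, had 282 and 332 counts in the mrWNT2 and control libraries. Mrpl3, which has a bacterial counterpart, had 327 counts in the mrWNT2 library and 383 in the control library. Mrpl58, a peptidyl-tRNA hydrolase that frees stalled chains, had 154 counts in the mrWNT2 library and 179 in the control library, and Mrpl30 had 380 and 432. The intervals of Mrpl49, Mrpl3, Mrpl58 and Mrpl30 all included a ratio of 1, so at this depth their values cannot be separated from no difference.

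In the small subunit, the highest ratio was that of Mrps27, a pentatricopeptide repeat protein, with 134 counts in the mrWNT2 library and 87 in the control library (1.62-fold, 1.23 to 2.15). Mrps36 came next with 142 counts in the mrWNT2 library and 95 in the control library (1.57-fold, 1.2 to 2.06), although its product is not a ribosomal protein. Mrps2, a protein with a bacterial counterpart, had 323 counts in the mrWNT2 library and 228 in the control library (1.49-fold, 1.25 to 1.77). Mrps24, the counterpart of a bacterial protein at the mRNA entry, was 1.33-fold higher (1.10 to 1.60), with 259 counts in the mrWNT2 library and 205 in the control library. Mrps35, Mrps31 and Mrps26, each without a bacterial counterpart, were 1.25-fold, 1.23-fold and 1.23-fold higher, and the interval of Mrps31 included a ratio of 1.

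No small-subunit gene had an interval below a ratio of 1. Mrps16, a protein with a bacterial counterpart, had 216 counts in the mrWNT2 library and 253 in the control library (1.11-fold lower, interval 0.925 to 1.34). Mrps10 had 240 counts in the mrWNT2 library and 252 in the control library, and Mrps9 had 337 and 353, both at a ratio of 1.0. Mrps22, found in mitochondria only, had 141 counts in the mrWNT2 library and 144 in the control library. The lowest ratio belonged to Mrps6, one of the most weakly counted members, with 30 counts in the mrWNT2 library and 44 in the control library (1.39-fold lower, 0.857 to 2.30). Mrps34 had 33 counts in the mrWNT2 library and 40 in the control library, and Mrps28 had 62 and 63. Mrps11 and Mrpl55, also under a mean of 10 CPM, were 1.18-fold higher (0.91 to 1.53) and 1.12-fold higher (0.85 to 1.47).

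The Mrps18 genes are 3 paralogs of 1 bacterial small-subunit protein, of which the c form keeps the bacterial position, the b form sits elsewhere in the small subunit and the a form is in the large subunit. Mrps18a had 250 counts in the mrWNT2 library and 251 in the control library (1.05-fold, 0.88 to 1.25). Mrps18b had 124 counts in the mrWNT2 library and 98 in the control library (1.33-fold, 1.01 to 1.75). Mrps18c had 156 and 159 counts in the mrWNT2 and control libraries (1.03-fold, 0.82 to 1.29). The 3 intervals overlapped. Mrps30, the other large-subunit protein with a small-subunit name, had 221 counts in the mrWNT2 library and 206 in the control library (1.13-fold, 0.93 to 1.37). With Mrps18a and Mrps30 counted as large and Mrps36 left out, the subunit medians were 0.18 for the large and 0.15 for the small.

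Grouped by origin, the 46 members with bacterial counterparts had a median log2 ratio of 0.12. Among them, 11 reached 1.2-fold on the higher side (23.9%, close to the 21.0% of all genes) and 2 on the lower side. The 30 other measured mitoribosomal members had a median of 0.23, with 14 at least 1.2-fold higher (46.7%) and 0 lower. Mrps18a and Mrps18b, paralogs of a bacterial protein that do not keep its position, were placed among these 30. Summed, the 46 members were 1.09-fold higher (1.07 to 1.12) and the 30 others were 1.25-fold higher (1.21 to 1.28). The second value was 1.17-fold (1.13 to 1.21) once Mrpl45 was left out. Grouped by place, the 8 genes of the peptide tunnel exit had a median of 0.24, with 4 at least 1.2-fold higher. The 8 genes listed here for the central protuberance, which need not be all of its genes, had a median of 0.19, with 3 at least 1.2-fold higher. The 4 measured genes of the stalk had a median of 0.21, with 2 at least 1.2-fold higher, namely Mrpl12 and Mrpl54. Mrpl45 was the highest of the tunnel exit and Mrpl52 the highest of the central protuberance, and groups of this size are given as values only.

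Levels differed far more between genes than between libraries. Expressed per kilobase of gene length, so that genes can be set against each other, the detected members spanned 35.4-fold in the mrWNT2 library and 26.9-fold in the control library. Large-subunit genes had a median of 9.92 CPM per kilobase in the mrWNT2 library and 8.03 in the control library. Small-subunit genes had a median of 5.16 CPM per kilobase in the mrWNT2 library and 4.74 in the control library. On average over both libraries the large-subunit median was 1.86 times that of the small subunit, and 1.81 times when levels were taken per kilobase of the principal transcript instead. Across the 77 genes the log2 levels of the libraries correlated with r = 0.975, which is a description of points that share gene length and the same pair of libraries.

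The highest levels per length among the large-subunit genes were those of Mrpl45, with 44.5 CPM per kilobase in the mrWNT2 library and 24.2 in the control library, Mrpl43, with 31.2 and 27.9, and Mrpl18, with 31.3 and 27.4. In the small subunit, Mrps21 led with 41.2 CPM per kilobase in the mrWNT2 library and 39.0 in the control library, followed by Mrps23 (22.3 and 20.0) and Mrps15 (20.2 and 19.3). By deposited length, Mrpl45 thus had the highest large-subunit level in the mrWNT2 library, whereas in the control library it stood below both Mrpl43 and Mrpl18. This order depends on the length used. Per kilobase of principal transcript, Mrpl33 was the highest large-subunit gene in both libraries, with 64.0 in the mrWNT2 library and 79.6 in the control library. By that length Mrpl45 had 47.5 and 25.9, and the counts of Mrpl33 can include reads from outside its principal transcript. The lowest levels among genes averaging 10 CPM or more were those of Mrpl23 (2.96 CPM per kilobase in the mrWNT2 library and 2.42 in the control library), Mrpl13 (3.24 and 2.53) and Mrpl48 (2.99 and 3.04) in the large subunit. In the small subunit they were those of Mrps35 (1.89 CPM per kilobase in the mrWNT2 library and 1.51 in the control library), Mrps25 (2.20 and 1.81) and Mrps10 (2.34 and 2.33). Deposited gene lengths count every annotated exon, and for Mrpl13 the deposited length was 7936 bases against 1223 for its principal transcript, so low values per length can reflect long gene models. Between the 2 ways of taking length, the order of levels in the mrWNT2 library kept a rank correlation of 0.77.

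**Figure D3:**
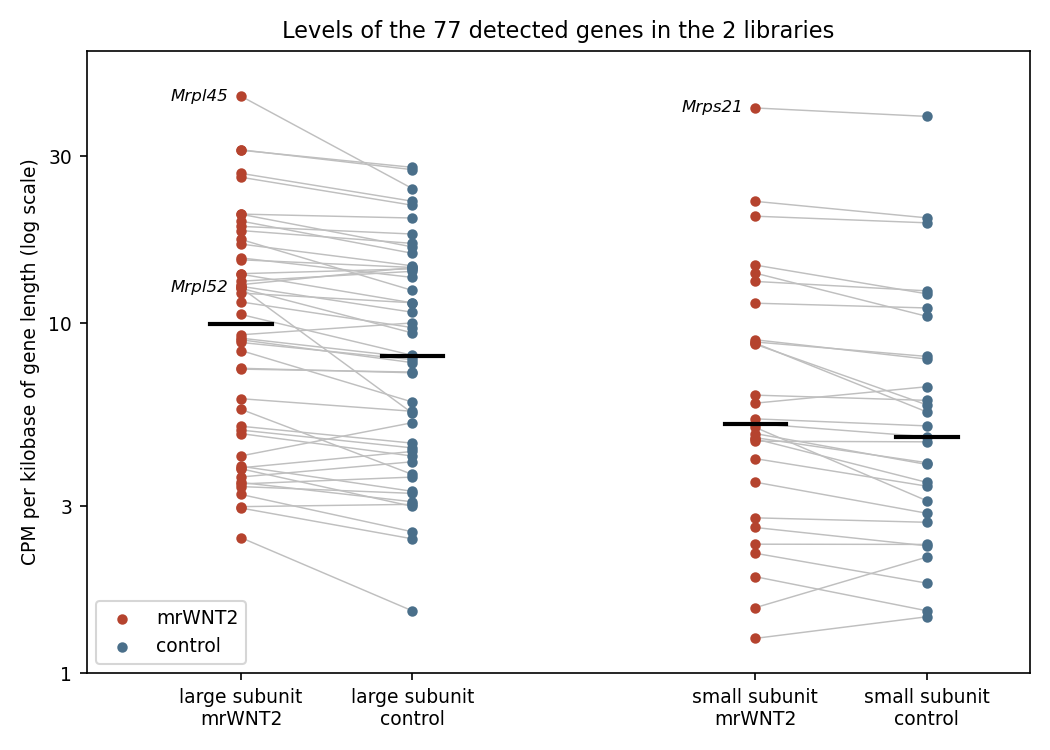
Level of each of the 77 detected genes in CPM per kilobase of gene length (y axis, log scale) in the mrWNT2 and control libraries, for the large and the small subunit. Each line joins 1 gene and the black bars are medians, 9.92 and 8.03 for the large and 5.16 and 4.74 for the small subunit; Mrpl45 and Mrpl52 have the steepest lines among the labelled genes.

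Some members share exons with other genes, and the strand setting of the counting was not stated in the labels or notes used. In the GENCODE annotation of GRCm38, 33 of the 78 shared exonic bases with another gene, and 3 shared more than 50% of them. Mrpl53, a stalk protein gene, had 0 counts in each library. The floor of 3 counts stands at 0.236 CPM in the mrWNT2 library and 0.224 CPM in the control library. However, 88.0% of the exonic bases of Mrpl53 were shared, most of them with the gene model Gm42688 on the same strand. Whether reads in shared bases were counted for Mrpl53 is not known, so its 0 counts set no limit on its RNA level. Mrps34 shared 77.8%, most of it with Mapk8ip3 on the opposite strand. It also shared 763 bases with Nme3 on the same strand, and Nme3 had 0 counts in both libraries. Mrps6 shared 19.9% of its exonic bases with Gm49711 and Slc5a3, both on the same strand. Mrps25 shared 69.8% with Nr2c2 on the opposite strand. Nr2c2 had 680 counts in the mrWNT2 library and 933 in the control library, a difference in the other direction from Mrps25, which had 184 and 159. Mrpl52, Mrpl45, Mrpl38 and Mrps2 shared no exonic bases. The part that shared bases play in the counts was not tested. The 45 measured members that shared none and the 32 that shared some both had a median log2 ratio of 0.18. Above a ratio of 1 were 41 of the 45 and 24 of the 32 (all genes, 52.3%). At least 1.2-fold lower were 0 of the 45 and 2 of the 32 (all genes, 18.4%). Summed, the members that shared none, Mrpl45 among them, were 1.2-fold higher (1.17 to 1.23) and those that shared some 1.09-fold higher (1.06 to 1.12). Processed pseudogenes listed as copies of 8 of the members, Mrpl45, Mrpl48 and Mrps36 among them, are also in the table, with at most 31 counts each. The copy of Mrpl45 had 0 counts in both libraries. How reads that match both a member and a copy were counted is not known. The counts of those members are therefore uncertain to an unknown extent.

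Promoter sequences show a further trait that the choice of members did not use. RefSeq promoters (GRCm38.p6), 250 bases before to 50 after a start, were found for 69 of the 78 members. They were searched on both strands for the letters CCGGAAG (bound by ETS factors such as GABPA), AAGATGGCG (YY1) and GCGCA and GCGC with 1 base of any kind between them (NRF1), factors known to act on nuclear genes of mitochondria. The ETS letters were in 26 of the 69 (37.7%), against 21.3% of measured coding genes (1 CPM or more) and 9.93% of all genes in the promoter table. The YY1 letters were in 8 (11.6%, against 3.87% and 1.64%) and the NRF1 letters in 13 (18.8%, against 12.1% and 5.19%). At least 1 of these was present in 41 of the 69 (59.4%), compared with 33.0% of the measured coding genes. The CCAAT box letters CCAAT (39.1% of members and 43.4% of measured coding genes), the TATA box letters TATAAA (7.25% and 8.37%) and the E-box letters CACGTG (7.25% and 11.9%) were not more frequent among the members. ETS and YY1 letters overlapped in 0 of the members' promoters.

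The promoters of the members with the highest and lowest ratios, and of a pair of members that start from opposite strands, are printed to show how these letters are laid out. Capitals mark ETS, YY1 and NRF1 letters on either strand.
Mrpl52 (chr14:54426659-54426958, plus strand): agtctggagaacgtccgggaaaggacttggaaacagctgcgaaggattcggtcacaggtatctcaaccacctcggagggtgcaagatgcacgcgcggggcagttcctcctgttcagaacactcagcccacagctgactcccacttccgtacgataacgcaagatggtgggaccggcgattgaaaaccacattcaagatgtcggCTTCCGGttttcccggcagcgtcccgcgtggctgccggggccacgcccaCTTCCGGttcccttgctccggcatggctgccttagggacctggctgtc
Mrpl45 (chr11:97315466-97315765, plus strand): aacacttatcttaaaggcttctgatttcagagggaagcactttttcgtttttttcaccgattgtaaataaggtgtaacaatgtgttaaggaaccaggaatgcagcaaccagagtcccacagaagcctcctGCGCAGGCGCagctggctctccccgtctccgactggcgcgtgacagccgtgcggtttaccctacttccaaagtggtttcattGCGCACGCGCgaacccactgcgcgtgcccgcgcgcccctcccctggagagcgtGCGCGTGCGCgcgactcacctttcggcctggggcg
Mrpl33 (chr5:31613701-31614000, plus strand): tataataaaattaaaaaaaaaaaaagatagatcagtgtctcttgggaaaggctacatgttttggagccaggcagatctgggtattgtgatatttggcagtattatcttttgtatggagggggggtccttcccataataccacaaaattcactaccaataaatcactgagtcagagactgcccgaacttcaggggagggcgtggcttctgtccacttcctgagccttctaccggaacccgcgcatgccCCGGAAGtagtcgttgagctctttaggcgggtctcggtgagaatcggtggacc
Mrpl46 (chr7:78783040-78783339, minus strand): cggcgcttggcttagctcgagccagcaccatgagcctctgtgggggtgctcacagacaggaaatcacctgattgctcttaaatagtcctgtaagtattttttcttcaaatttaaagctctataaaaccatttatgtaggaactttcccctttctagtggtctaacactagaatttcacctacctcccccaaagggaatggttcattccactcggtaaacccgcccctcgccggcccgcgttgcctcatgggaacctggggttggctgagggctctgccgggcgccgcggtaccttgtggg
Mrps11 (chr7:78782881-78783180, plus strand): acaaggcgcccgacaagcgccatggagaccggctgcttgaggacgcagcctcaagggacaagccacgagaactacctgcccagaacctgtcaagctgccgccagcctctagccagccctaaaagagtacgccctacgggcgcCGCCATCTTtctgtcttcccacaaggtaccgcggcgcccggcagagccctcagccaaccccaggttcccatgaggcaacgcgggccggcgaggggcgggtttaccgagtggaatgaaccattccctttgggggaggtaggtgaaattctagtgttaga
The Mrpl52 promoter held ETS letters at 2 places and that of Mrpl45 held NRF1 letters at 3. Mrpl33, whose RefSeq start lies inside the longer deposited locus and which had the lowest ratio among the well-counted members, held ETS letters at 1 place, so the letters were present at both ends of the range of ratios. The Mrps11 window held the YY1 letters, and that of Mrpl46 held none of the ETS, YY1 or NRF1 letters, though it held the TATA box letters, which are not capitalised. The windows of this pair overlap, and the YY1 letters lie just outside the edge of the Mrpl46 window. Their absence there therefore follows from where the window was cut. Members with ETS letters had a median log2 ratio of 0.09 (25 genes) and those without had 0.18 (43 genes). For the NRF1 letters the medians were 0.18 with (13 genes) and 0.16 without (55 genes), and for the YY1 letters 0.18 with (8 genes) and 0.17 without (60 genes). A match describes letters in a window and is no evidence of binding.

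**Figure D4:**
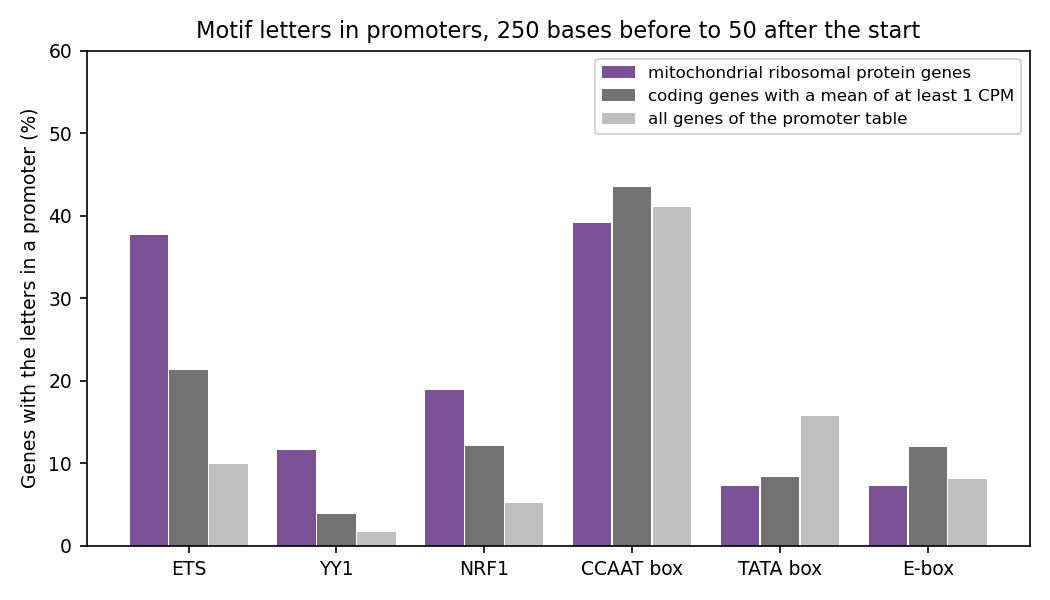
Share of genes (y axis, %) whose RefSeq promoter holds the letters of each motif on either strand, for the 69 mitochondrial ribosomal protein genes with a promoter, measured coding genes (1 CPM or more) and all genes of the promoter table. ETS letters stood at 37.7%, 21.3% and 9.93%, while the CCAAT, TATA and E-box letters were no more frequent among the members than among measured coding genes.

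Many members also sit head to head with another gene. A coding gene on the opposite strand started within 1000 bases upstream of, or up to 500 bases inside, the start of 26 of the 78 members (33.3%), against 15.2% of measured coding genes. The pair printed above, Mrpl46 and Mrps11, joins a large-subunit and a small-subunit gene on chromosome 7. Mrpl46 had 163 counts in the mrWNT2 library and 151 in the control library, and Mrps11 had 130 and 116. Mrpl36 faces Ndufs6, a subunit gene of respiratory complex I, Mrpl32 faces the proteasome gene Psma2, and Mrps12 faces Sars2, the mitochondrial seryl-tRNA synthetase gene. Of the 25 partners that averaged 1 CPM or more, 18 had a ratio above 1 (all genes, 52.3%). At least 1.2-fold higher were 2 of the partners (all genes, 21.0%), and 1 was at least 1.2-fold lower (all genes, 18.4%). Their median log2 ratio was 0.08, against 0.18 for the members they face, and member and partner ratios had a rank correlation of 0.01 over the 25 pairs, where Mrpl46 and Mrps11 count as partners of each other.

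Other genes of mitochondrial translation gave ratios of about the same size. The 5 mitoribosomal proteins with other names (Dap3, Ptcd3, Chchd1, Aurkaip1 and Gadd45gip1) all had a ratio above 1 (all genes, 52.3%), with a median log2 ratio of 0.15. Gadd45gip1, a large-subunit protein, had 70 counts in the mrWNT2 library and 42 in the control library (1.75-fold, 1.18 to 2.63). Of 13 measured translation factors, 3 were at least 1.2-fold higher (23.1%, all genes 21.0%) and 1 lower (median 0.14). The elongation factor gene Tufm was 1.30-fold higher (1.14 to 1.48) and the ribosome recycling factor gene Mrrf 1.53-fold (1.13 to 2.08). Of 17 mitochondrial aminoacyl-tRNA synthetase genes, which charge the tRNAs of the organelle, 7 were at least 1.2-fold higher (41.2%) and 0 lower (median 0.17). Vars2 was among them at 1.47-fold (1.17 to 1.85). Of 23 genes of mitoribosome assembly and rRNA modification, 7 were at least 1.2-fold higher (30.4%) and 1 lower (median 0.19). Tfb1m, which methylates the small-subunit rRNA, had 58 counts in the mrWNT2 library and 25 in the control library (2.44-fold, 1.5 to 4.07), and Mrm1, which methylates the large-subunit rRNA, had 51 and 95 (1.77-fold lower, ratio interval 0.394 to 0.802).

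Genes on either side of mitochondrial translation were read the same way. The 16 measured import genes, which bring nuclear-encoded proteins into the organelle, had a median log2 ratio of 0.20. The 75 measured nuclear respiratory chain genes had a median of 0.18, with 18 at least 1.2-fold higher (24.0%, all genes 21.0%) and 1 lower. The 80 measured cytosolic ribosomal protein genes had a median of 0.19, with 17 at least 1.2-fold higher (21.25%) and 1 lower. Both shares on the higher side were close to that of all genes. The cytosolic ribosome and the respiratory chain thus had medians like that of the members. Their interquartile widths were 0.12 and 0.19 against 0.24 for the members. Both lists were counted more deeply, with 22101 and 5940 CPM summed in the mrWNT2 library against 1706 CPM for the members, so the widths were not compared at like depth. Replication and transcription genes of mitochondrial DNA had a median of 0.05 over 12 genes, with 3 at least 1.2-fold higher and 1 lower. Lrpprc, which stabilises mitochondrial mRNAs, was the highest at 1.46-fold (1.30 to 1.65), and Twnk, the helicase of mitochondrial DNA, was 1.21-fold lower. The 12 measured protein genes of mitochondrial DNA had a median of 0.12, with 5 at least 1.2-fold higher (41.7%, all genes 21.0%) and 0 lower. Of the 5, mt-Nd3 had only 15 counts in the mrWNT2 library and 11 in the control library. The summed CPM of the list had a ratio of 1.02 (1.02 to 1.03). In the mrWNT2 library, mt-Co1 alone gave 14240 of the 26380 CPM summed, and its ratio was 1.0. The difference in the summed CPM was no larger than the shift of -0.03 in log2 that DESeq2 size factors give every gene, so its direction depends on the scaling. Of 8 measured regulators of mitochondrial genes, 5 had a ratio below 1, 1 reached 1.2-fold on the higher side and 1 on the lower side, with a median log2 ratio of -0.04. Nrf1 had 471 counts in the mrWNT2 library and 604 in the control library (1.22-fold lower) and Gabpa had 936 and 878. Yy1 had 1309 counts in the mrWNT2 library and 1438 in the control library, and Myc, which promotes ribosome production, had 1860 and 2100 (1.07-fold lower, interval 1.01 to 1.14). Ppargc1b, a coactivator of mitochondrial genes, had 76 counts in the mrWNT2 library and 23 in the control library (3.47-fold higher, 2.16 to 5.81).

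**Figure D5:**
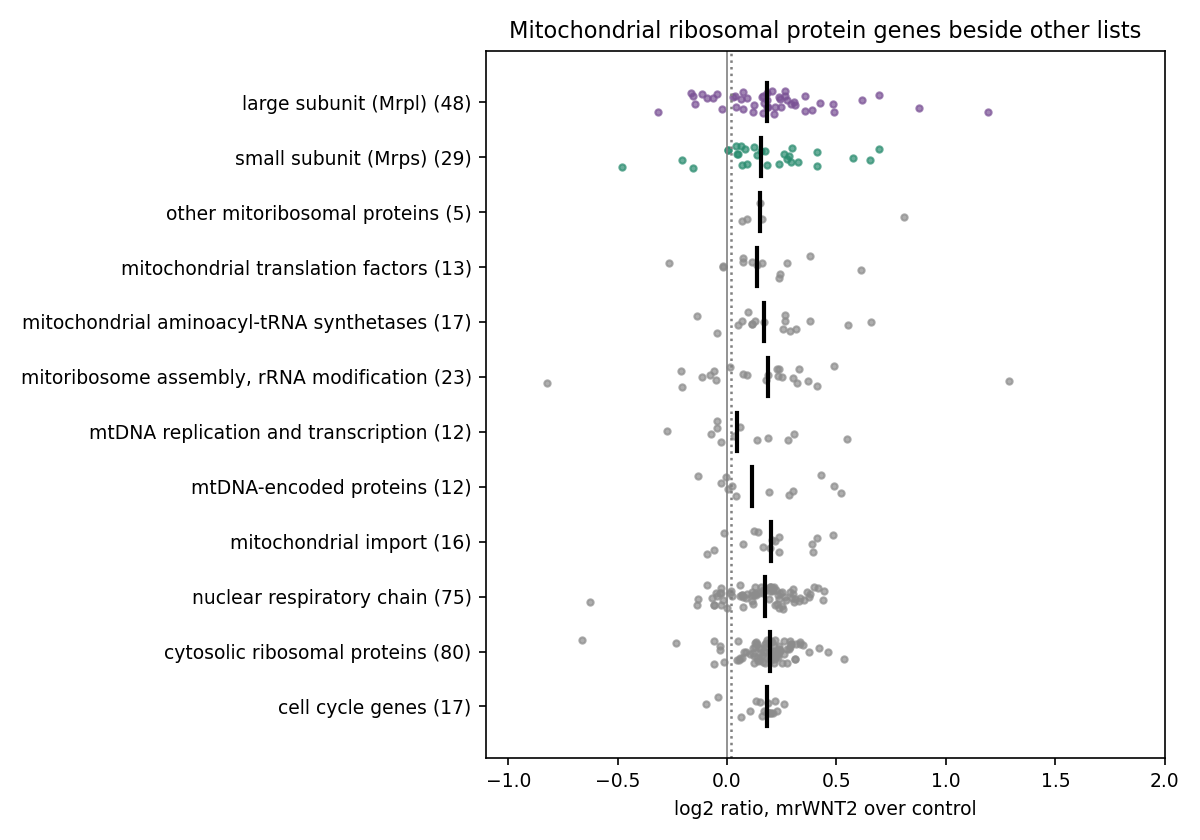
Log2 ratio of mrWNT2 over control (x axis) of every measured gene in the subunits and in 10 other lists, with the number of genes in brackets. Black bars are medians, the solid line is a ratio of 1 and the dotted line the median of all genes, 0.02; the medians of both subunits, import, respiratory chain, cytosolic ribosome and cell cycle lists lie between 0.16 and 0.20.

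The cultures also differed in other markers, whose part in these ratios was not tested. Of 17 measured cell cycle genes, 15 had a ratio above 1 and 0 reached 1.2-fold, and their median log2 ratio of 0.18 equalled that of the members, with summed levels of 3283 CPM in the mrWNT2 library and 2900 CPM in the control library. All 10 granulocytic genes were lower, summing to 67667 CPM in the mrWNT2 library and 83565 CPM in the control library, and the marker Itgam of the labelled cell type was present with 6070 and 6622 counts. Of 10 macrophage genes, 8 were at least 1.2-fold lower and 1 higher, summing to 1505 CPM in the mrWNT2 library and 2713 CPM in the control library. Monocyte genes went both ways, with 2 of 6 measured genes at least 1.2-fold higher and 2 lower, and summed to 2679 CPM in the mrWNT2 library and 2406 CPM in the control library. Of 5 measured stromal genes, 3 were at least 1.2-fold lower, and the list summed to 56.1 CPM in the mrWNT2 library and 63.7 CPM in the control library. Pecam1 gave most of this sum, 47.9 CPM in the mrWNT2 library and 41.6 CPM in the control library, and was 1.15-fold higher. The 3 lower genes, Col1a1, Col1a2 and Sparc, were 2.61-fold, 4.18-fold and 3.07-fold lower. T cell markers summed to 1.42 and 2.62 CPM in the mrWNT2 and control libraries, erythroid markers to 1.49 and 1.27 CPM and B cell markers to 4.25 and 4.64 CPM, with Hbb-bs and Pax5 at 0 counts in both.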

How the data were processed

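Deposited raw counts per gene and deposited FPKM, 1 column per library, were used. Per the submitters' processing notes, CASAVA 1.8, fastp, HISAT2 2.0.5, featureCounts 1.5.0-p3, DESeq2 1.20.0 and the GRCm38 (mm10) build were named, with no order given. Per the labels' protocols, TRIzol was used on total RNA and libraries came from the NEBNext Ultra kit. The gene length column of the deposited table gave lengths in bases.

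Counts were scaled with TMM factors (edgeR 4.0.16, R 4.3.3) fitted on the whole table and given as CPM. Each log2 ratio of mrWNT2 over control was taken without a pseudocount, with an exact 95% binomial interval from the 2 counts (scipy 1.17.1). The floor for 0 counts was 3 counts. Reads carry no molecular identifiers, so intervals and floors cover counting error only. Ratios from the authors' deposited FPKM differed from those of the counts by a constant of -0.03 on the log2 scale over 10078 genes.

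Members and lists were chosen with earlier results of these data known. Genes named were, per subunit and among those averaging 10 CPM or more, the 5 highest and 5 lowest ratios and the 3 highest and 3 lowest levels per length. Also named were members at 1.5-fold or more or under 10 CPM, the Mrps18 genes, Mrps30 and Mrps36, and, in other lists, the highest or lowest ratio or genes that describe the list. Other genes named, such as Mrpl12 and the gene pairs, were chosen after their values were seen. Exon overlap came from GENCODE M21, where 73 of the 78 members had the same start and end. The interval was tested on simulated data. Alternatives covered scaling, expression minimum, overlap, copies and subunit assignment.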

Additional observations from a re-analysis of the deposited data

How the results depend on the processing

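No paired analysis was possible because each group is 1 library. Of 109 recomputed summary values, 95 stayed within the limits set and 14 moved. For medians and levels the limit came from the counting interval of the summed counts, which is not the error of a median. For counts of members it was 1.5 times the reported count, so 18 against 26 passed as unchanged. The difference of large minus small, 0.03 by medians and 0.04 by summed counts, turned to -0.02 by summed counts without Mrpl45. The members' median log2 ratio, 0.18, ranged between 0.15 and 0.21 over the settings tried. Ratios of single members were recomputed under other scalings only, which shift every gene by the same small amount. DESeq2 size factors gave a members' median of 0.15. The deposited FPKM, as log2(FPKM + 0.1), gave 0.15 for all members and 0.15 for the large subunit. Before the 0.1 is added, FPKM ratios are shifted by the same -0.03 in log2 as under DESeq2 size factors. These 2 settings are therefore no independent checks of each other. DESeq2 size factors left 18 members at least 1.2-fold higher and total-count scaling 29, against 26. Among the 68 members averaging 10 CPM or more, 1 reached 1.2-fold on the lower side and 3 reached 1.5-fold on the higher side. Without the 41 members whose span overlaps another gene, 37 remained, of which 13 reached 1.2-fold on the higher side and 0 on the lower side, 3 reached 1.5-fold on the higher side and 33 were above a ratio of 1. Without members that share exonic bases, a setting added after the data were seen, as were the settings without Mrpl45 and the principal transcript lengths, the large-subunit median was 0.25, the difference of large minus small 0.14 (0.03 in the full set), 17 members were at least 1.2-fold higher, 0 lower and 41 above 1, over 45 members. The counts fell by construction, since fewer members entered. The cause of the moved medians was not tested. Counting intervals of single members reached about 1.2-fold to each side at the median, and further for weakly counted ones such as Mrps6 and Mrps34.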

Other observations

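The ribosomal RNAs of the mitoribosome, looked up after the other values were seen, were also in the table. The large-subunit rRNA gene mt-Rnr2 had 7951 counts in the mrWNT2 library and 6092 in the control library, a 1.37-fold ratio (1.33 to 1.42). The small-subunit rRNA gene mt-Rnr1 had 2848 counts in the mrWNT2 library and 2943 in the control library, a ratio of 1.02 (0.966 to 1.07).

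Among processed pseudogenes named for members, Mrpl48-ps held the most counts, 12 in the mrWNT2 library and 31 in the control library. Its parent Mrpl48 had 310 counts in the mrWNT2 library and 331 in the control library, a ratio of 0.98 (0.84 to 1.15).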
